A study of Mus musculus with 4 samples.

Results

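The genes described here encode 10 enzymes that act on tryptophan, on kynurenine and on the monoamines, and they were followed in the kidney and the heart of mice with sepsis. They were picked by name (Maoa, Maob, Ddc, Kynu, Kyat3, Kmo, Afmid, Haao, Inmt and Aldh3a2) and matched by Ensembl gene identifier, so they are 10 of the 55401 genes in each count file. All mice had undergone cecal ligation and puncture (CLP), an operation that lets gut bacteria leak into the abdomen and causes sepsis. Sham-operated mice were not analysed here. The mice were C57BL/6, and for the kidney experiment the study describes males aged 8 weeks with 24 h between CLP and collection. In the CLP+MLT group, melatonin (MLT) had been given in the drinking water at 25 μg/ml for 14 days before the operation, dissolved in ethanol (0.1%), and whether the water of the CLP mice held ethanol is not said. The study's methods do not describe the hearts, so dose, age and time are known for the kidneys only, and the titles of the CLP+MLT samples carry a number 4 that is not explained.

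There was 1 library for each of the CLP kidney, CLP+MLT kidney, CLP heart and CLP+MLT heart groups, and the sources do not say how many mice stood behind a library. No difference given here has a replicate check. Intervals are 95% exact intervals that cover counting error only, and every ratio compares 2 libraries, not 2 conditions. Reads counted on genes numbered 15883057 to 22927905 per library. Mitochondrially encoded genes held 14.8% of these reads in CLP kidney, 24.2% in CLP+MLT kidney, 31.6% in CLP heart and 36.0% in CLP+MLT heart. The tissue labels were checked against marker genes. The 8 cardiomyocyte markers summed to 31365 and 20734 CPM (normalised counts per 1000000 reads) in the heart libraries against 10.8 and 16.9 in the kidney libraries. The 8 markers of the first proximal tubule segments summed to 3231 and 3730 CPM in kidney, and to 90.2 (CLP) and 168 (CLP+MLT) in heart, so these tubule markers were also counted in the heart libraries.

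Most tryptophan that is not used for protein is opened to N-formylkynurenine, which Afmid hydrolyses to kynurenine. Kynurenine can then be hydroxylated by Kmo, after which Kynu and Haao carry it towards quinolinate and NAD, or it can be transaminated, by Kyat3 among others, to kynurenic acid. The smaller branch runs through the amines. Ddc, the aromatic amino acid decarboxylase, makes serotonin, dopamine and tryptamine, Inmt methylates tryptamine and other amines, and the mitochondrial oxidases Maoa and Maob break amines down to aldehydes, which aldehyde dehydrogenases such as Aldh3a2 oxidise. Melatonin itself is made from serotonin. The proximal tubule of the kidney is known for decarboxylating circulating L-DOPA to dopamine, and for its enzymes of the kynurenine pathway.

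Promoter windows of GRCm38.p6 from RefSeq (250 bases before to 50 after the start) were found for 8 of the 10 genes, with 2 start sites for Ddc, and none for Maob and Kynu. They are shown for the 4 genes with a window that differed past the thresholds between the kidney libraries, 2 of them lower (Ddc, Aldh3a2) and 2 higher (Inmt, Kyat3) with CLP+MLT. The counts are per gene and do not separate the 2 starts of Ddc. Capitals mark matches, on either strand, to GCGTG (the core of the aryl hydrocarbon receptor site), GTTAAT (a HNF1 core), CACGTG (the E-box), GGGCGG (the GC box) and TATAAA (the TATA box). The reverse of GCGTG shares its first letters with the E-box, but no 2 matches overlapped here.
Ddc, upstream start, minus strand, chr11:11898095-11898394: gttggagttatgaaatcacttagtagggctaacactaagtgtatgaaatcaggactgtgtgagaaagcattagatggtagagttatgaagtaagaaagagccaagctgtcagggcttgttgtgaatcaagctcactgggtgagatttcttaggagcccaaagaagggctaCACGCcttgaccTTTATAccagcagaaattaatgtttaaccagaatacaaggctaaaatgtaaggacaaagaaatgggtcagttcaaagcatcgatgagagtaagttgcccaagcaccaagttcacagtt
Ddc, downstream start, minus strand, chr11:11890359-11890658: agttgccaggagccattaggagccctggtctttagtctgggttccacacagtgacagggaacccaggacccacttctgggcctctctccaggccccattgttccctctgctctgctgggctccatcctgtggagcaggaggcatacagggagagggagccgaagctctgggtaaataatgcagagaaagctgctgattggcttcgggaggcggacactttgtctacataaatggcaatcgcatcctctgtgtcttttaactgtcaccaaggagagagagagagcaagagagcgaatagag
Aldh3a2, minus strand, chr11:61267137-61267436: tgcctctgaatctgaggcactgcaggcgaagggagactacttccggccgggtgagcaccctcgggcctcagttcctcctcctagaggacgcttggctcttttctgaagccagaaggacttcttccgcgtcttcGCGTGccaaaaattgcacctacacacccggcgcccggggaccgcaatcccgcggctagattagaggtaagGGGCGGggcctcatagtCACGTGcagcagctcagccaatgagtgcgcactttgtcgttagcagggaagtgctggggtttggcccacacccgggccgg
Inmt, minus strand, chr6:55174941-55175240: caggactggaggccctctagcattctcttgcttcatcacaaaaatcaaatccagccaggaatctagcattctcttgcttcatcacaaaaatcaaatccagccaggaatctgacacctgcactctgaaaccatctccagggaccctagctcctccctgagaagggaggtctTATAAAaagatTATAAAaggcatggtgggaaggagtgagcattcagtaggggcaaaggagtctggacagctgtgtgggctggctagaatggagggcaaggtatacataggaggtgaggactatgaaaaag
Kyat3, plus strand, chr3:142700798-142701097: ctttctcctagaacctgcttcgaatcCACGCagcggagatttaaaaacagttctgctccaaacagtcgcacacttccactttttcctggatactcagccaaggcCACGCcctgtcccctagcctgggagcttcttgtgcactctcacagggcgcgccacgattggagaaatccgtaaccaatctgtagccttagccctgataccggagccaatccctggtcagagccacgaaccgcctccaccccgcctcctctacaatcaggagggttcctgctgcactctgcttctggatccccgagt

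The GCGTG core stood in 4 of the 9 windows of these enzymes (Ddc upstream, Kyat3, Haao and Aldh3a2), against 32.4% of all 32851 promoter windows. The TATA box stood in 2 of 9 (13.6% of all windows), with 2 copies in Inmt. The GC box stood in 3 of 9 (35.7%). The HNF1 core, in Haao, and the E-box, in Aldh3a2, stood in 1 of 9 each, against 7.10% and 7.15%. These are letter matches in short windows, and no binding was measured.

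Levels were compared between genes per kilobase of exon. In the CLP kidney library, Inmt stood highest with 53.1 CPM per kilobase, followed by Haao (31.5), Aldh3a2 (21.4), Ddc (19.1), Kmo (13.7) and Kyat3 (5.18). The others were lower, with Maob at 2.72, Afmid at 2.65, Maoa at 2.20 and Kynu at 0.345. The intervals of Maob, Afmid and Maoa overlapped, and those of the other neighbours in this order did not. In the CLP+MLT kidney library the order was Inmt (121), Haao (45.7), Kmo (16.3), Aldh3a2 (13.99), Kyat3 (9.20), Ddc (8.78), Afmid (2.59), Maoa (1.65), Maob (0.605) and Kynu (0.581). Ddc had thus moved from the fourth place to behind Kyat3, with overlapping intervals for these genes, and Maob had moved next to Kynu, again with overlap.

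**Figure D1:**
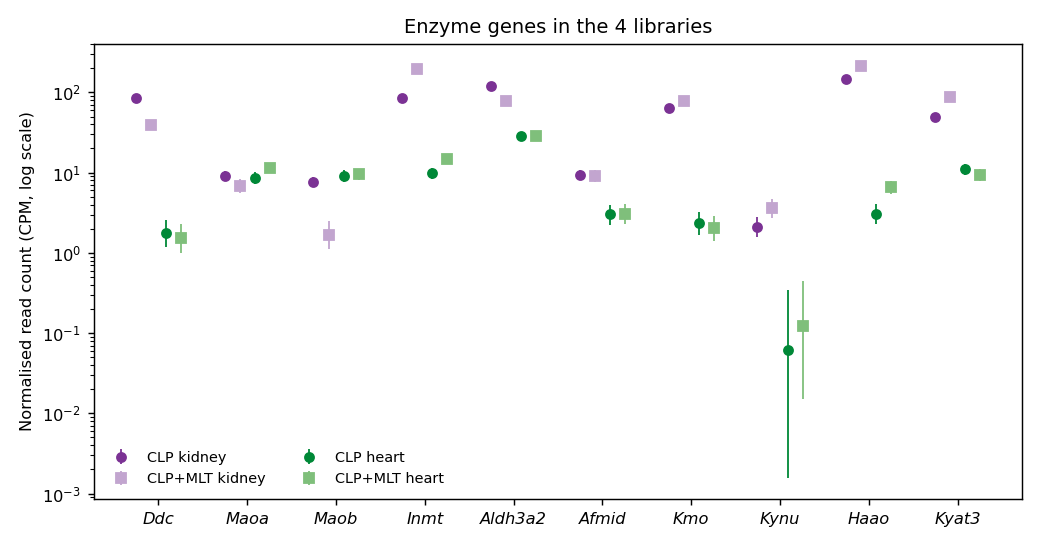
Normalised read count (CPM, logarithmic axis) of each enzyme gene in the 4 libraries, with 1 point per library and bars for the 95% exact Poisson interval of its counts. Points of Ddc, Kmo, Haao and Kynu lie more than 10-fold higher in kidney than in heart, while Maoa and Maob lie under their heart level in the CLP+MLT kidney.

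The question put to the kidney libraries was which of these enzymes differed with melatonin. In the CLP+MLT kidney, Maob, Ddc and Aldh3a2 were lower and Inmt, Kyat3 and Kynu were higher, each by a fold of at least 1.5 with an exact binomial p of at most 0.01 on the reads. These were 6 of 10 genes, all of which passed the filter of a mean of 10 counts, against 15.4% of the 16932 genes tested (7.8% higher and 7.58% lower). The enzymes were chosen with earlier results of these data known, so this share is a description and not a test. The median log2 ratio of the 10 genes was 0.11, the medians of their lower and upper bounds were −0.10 and 0.32, and 5 were above and 5 below 0, against a median of 0.0029 over all genes. The 10 genes thus spread to both sides of 0. If mice of a group were assumed to vary by a coefficient of 0.2, Maob, Ddc and Inmt would still pass (3 genes, against 3.66% of all genes), and at 0.4 there would be 0 (0.532% of all genes). A fold of at least 2 left the same 3 genes (7% of all genes), and scaling by library size alone gave 6 genes (18.3%), with Maoa in place of Kynu. In whole tissue, fewer cells of a type and less RNA per cell cannot be told apart.

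The 3 enzymes that were lower past the thresholds belong to the amine branch, in which Inmt was higher. Maob (ENSMUSG00000040147.14, chromosome X from 16709282 to 16817366, mm10), which prefers phenylethylamine among its substrates, had 186 counts in CLP kidney and 26 in CLP+MLT kidney, or 7.58 and 1.69 CPM. This was 4.44-fold lower, a log2 ratio of −2.15 (−2.82 to −1.57). Its neighbour Maoa (ENSMUSG00000025037.6, chromosome X from 16619698 to 16687818), which prefers serotonin and noradrenaline, had 225 and 106 counts, or 9.17 and 6.88 CPM. Its log2 ratio of −0.41 (−0.76 to −0.07) was 1.33-fold lower and did not reach the threshold. The 2 genes lie end to end, 21463 bases apart on opposite strands. Of the reads on both genes, Maob took 45.3% (40.4 to 50.2) in CLP kidney and 19.7% (13.3 to 27.5) in CLP+MLT kidney. This share does not depend on the scaling of the libraries, and its intervals did not overlap, so the ratios of the pair differed beyond counting error.

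Ddc (ENSMUSG00000020182.16, chromosome 11 from 11814101 to 11898144) had 2093 counts in CLP kidney and 603 in CLP+MLT kidney, or 85.3 and 39.2 CPM. It was 2.18-fold lower, with a log2 ratio of −1.12 (−1.26 to −0.99). Chromaffin cells and sympathetic nerves are also known to make Ddc. Of their 5 markers, Th, Dbh, Pnmt and Chga were at 0 in both kidney libraries, where a count of 0 allows up to 0.122 CPM (CLP) and 0.195 CPM (CLP+MLT), and Chgb had 2 and 1 counts. The monoamine transporters Slc18a1 and Slc18a2, chosen after their values were seen, were counted in kidney. Slc18a1 had 1801 and 865 counts (−0.39, from −0.50 to −0.27). Slc18a2 had 68 and 18 (−1.23, from −2.08 to −0.48), lower past the thresholds. In the monoamine transporter list, 2 of 6 genes past the filter passed the thresholds (33.3%, against 15.4% of all genes). Of 4 mast cell markers, Cpa3, Cma1 and Tpsb2 were at 0. Kit, which other cells also express, had 299 and 330 counts. After scaling its log2 ratio was 0.81, higher past the thresholds, and it was the 1 marker of this list past the filter. Which cells the Ddc reads came from was not tested.

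Inmt (ENSMUSG00000003477.5, chromosome 6 from 55170626 to 55175043) went the other way, with 2083 counts in CLP kidney and 2976 in CLP+MLT kidney, or 84.9 and 193 CPM. It was 2.28-fold higher, with a log2 ratio of 1.19 (1.11 to 1.27). Ddc makes tryptamine and Inmt methylates it. In CLP kidney the reads of both genes were split evenly, with 49.9% (48.4 to 51.4) on Inmt, and in CLP+MLT kidney Inmt took 83.2% (81.9 to 84.4).

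Aldh3a2 (ENSMUSG00000010025.19, chromosome 11 from 61223417 to 61267464), best known as the fatty aldehyde dehydrogenase, had 2953 and 1210 counts, or 120 and 78.6 CPM. Its log2 ratio of −0.62 (−0.71 to −0.52) was 1.53-fold lower, just past the threshold, which lies inside its interval.

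**Figure D2:**
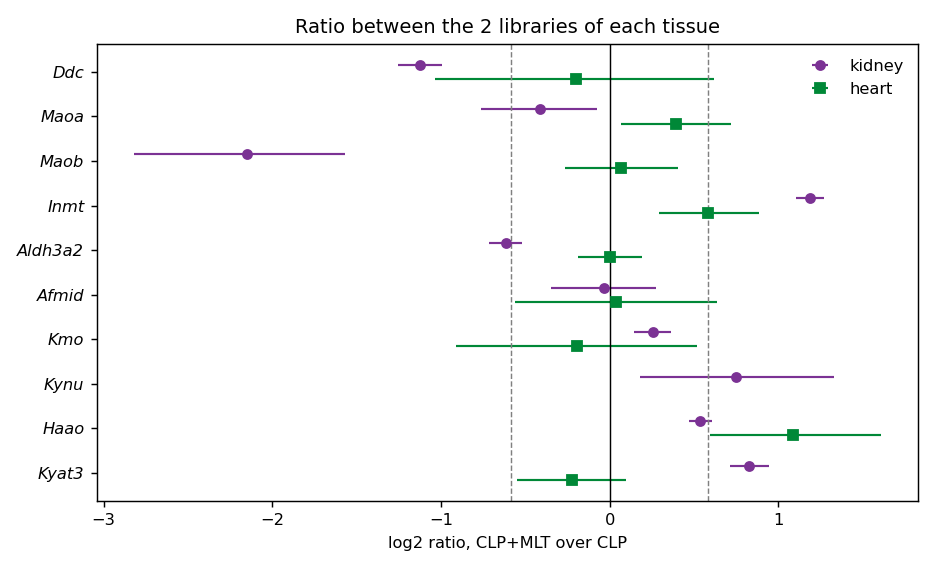
log2 ratio of CLP+MLT over CLP for each enzyme gene, in kidney (circles) and heart (squares), with bars for the 95% exact counting interval and dashed lines at a fold of 1.5. In kidney, Maob, Ddc and Aldh3a2 lie beyond the left line and Inmt, Kyat3 and Kynu beyond the right line, whereas in heart Haao alone lies beyond a line. Kynu is not drawn for heart, where it did not pass the filter.

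Along the kynurenine pathway, 4 of the 5 enzymes were above 0 in kidney, and Kyat3 and Kynu passed the thresholds, where 50.3% of all genes were above 0 and 15.4% passed. Kyat3 (ENSMUSG00000040213.13, chromosome 3 from 142701051 to 142746870), a mitochondrial kynurenine aminotransferase, had 1209 counts in CLP kidney and 1348 in CLP+MLT kidney, or 49.3 and 87.5 CPM. It was 1.78-fold higher, a log2 ratio of 0.83 (0.72 to 0.94). Its exons overlap those of the antisense gene Gm15540, and without a stated strand setting the reads of both cannot be told apart.

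Kmo (ENSMUSG00000039783.15, chromosome 1 from 175620381 to 175662116), which competes with Kyat3 for kynurenine, had 1583 and 1185 counts, or 64.5 and 77.0 CPM. Its log2 ratio was 0.25 (0.14 to 0.36), under the fold of the threshold. Of the reads on Kyat3 and Kmo, Kyat3 took 43.3% (41.5 to 45.2) in CLP kidney and 53.2% (51.3 to 55.2) in CLP+MLT kidney. These intervals did not overlap either, and the share is free of the scaling.

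Kynu (ENSMUSG00000026866.16, chromosome 2 from 43555329 to 43682715), the kynureninase, had few reads, with 52 counts in CLP kidney and 55 in CLP+MLT kidney. After scaling these were 2.12 and 3.57 CPM, a log2 ratio of 0.75 (0.18 to 1.33). With scaling by library size alone it was 0.55 and did not pass. Haao (ENSMUSG00000000673.9, chromosome 17 from 83831156 to 83847963), which forms the direct precursor of quinolinate, had 3616 and 3293 counts, or 147 and 214 CPM. Its log2 ratio of 0.54 (0.47 to 0.61) was 1.45-fold higher, just short of the threshold. Afmid (ENSMUSG00000017718.15, chromosome 11 from 117825924 to 117839908) had 230 and 141 counts, or 9.38 and 9.16 CPM, and its log2 ratio of −0.03 (−0.35 to 0.27) shows no difference detectable at this depth. The exons of Afmid overlap those of Tk1 on the other strand and of Gm20708 on the same strand, which makes its counts uncertain.

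**Figure D3:**
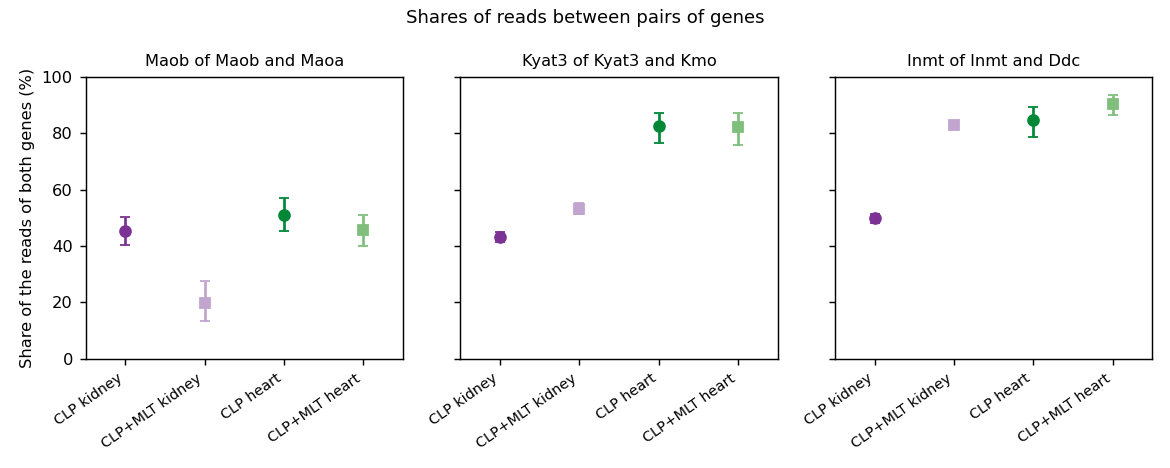
Share (%) of the reads of 2 genes that fell on the first, in each of the 4 libraries, with bars for the 95% exact Clopper-Pearson interval. From CLP to CLP+MLT kidney the share of Maob falls from 45.3% to 19.7%, that of Kyat3 rises from 43.3% to 53.2% and that of Inmt rises from 49.9% to 83.2%, while the intervals of the heart libraries overlap in each of these 3 panels.

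Other transcripts differed between the same kidney libraries. All 6 tubular injury markers were lower in CLP+MLT kidney, 5 of them past the thresholds, and their sum was 11382 CPM in CLP and 2407 in CLP+MLT. Of the 8 markers of the first proximal tubule segments, all detected, 2 were higher and 4 lower past the thresholds, with log2 ratios from −3.31 to 0.73. The 4 markers of the last segment, S3, were all above 0, from 0.08 to 2.24, with a sum of 449 CPM in CLP and 837 in CLP+MLT. Of these 4, only Slc7a13 (2.24) was higher past the thresholds. The 7 macrophage markers summed to 117 and 235 CPM, with 6 above and 1 below 0. Of these 7, 2 were higher past the thresholds, Lyz2 (1.81) and Csf1r (1.13). Over all genes, 7.8% were higher and 7.58% lower past the thresholds. What part these markers had in the differences of the enzymes was not tested.

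In heart, Haao was the 1 enzyme of 9 past the filter that passed the thresholds, or 11.1%, against 15.9% of the 15871 genes tested (7.15% higher and 8.78% lower). The median log2 ratio of the 9 genes was 0.04, with median bounds of −0.27 and 0.62, against 0.0023 over all genes. At an assumed coefficient of variation of 0.2 or 0.4, 0 of the enzymes passed, against 4.17% and 0.397% of all genes, and at a fold of 2 Haao still did (7.93%). Haao had 50 counts in CLP heart and 106 in CLP+MLT heart, or 3.07 and 6.55 CPM, a log2 ratio of 1.09 (0.60 to 1.61). In the CLP mice its heart level was 2.08% of its kidney level, and in the CLP+MLT mice 3.06%. Over the 12 proximal tubule markers the same percentage had a median of 2.46% with CLP and 4.10% with CLP+MLT. All 12 were detected in both hearts. Of the 8 early markers 5, and of the 4 S3 markers 3, were higher past the thresholds in CLP+MLT heart. The early markers Slc5a12 (15 and 5 counts, −1.49) and Slc5a2 (237 and 183 counts, −0.36) were below 0, neither past the thresholds. Haao took 56.8% (45.8 to 67.3) of the reads on Haao and Kmo in CLP heart and 76.3% (68.3 to 83.1) in CLP+MLT heart, against 69.6% and 73.5% in kidney. What part the tubule markers' difference had in that of Haao was not tested.

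Inmt had 161 and 240 counts in heart, or 9.87 and 14.8 CPM, and its log2 ratio of 0.58 (0.29 to 0.88) fell just short of the threshold. Scaling by library size alone (0.64) or by the upper quartile (0.63) brought it past, which made 2 enzymes against 16% of all genes. Inmt in heart came to 11.6% of its kidney level with CLP and 7.67% with CLP+MLT. Maoa had 141 and 184 counts, or 8.65 and 11.4 CPM, with a log2 ratio of 0.39 (0.07 to 0.72), above 0 in heart where it was below 0 in kidney.

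The other enzymes differed less in heart. Maob had 148 and 154 counts (9.08 and 9.51 CPM) and a log2 ratio of 0.07 (−0.27 to 0.40). Aldh3a2 had 460 and 457 counts, and 28.2 CPM in both libraries. Kyat3 had 179 and 152 counts (11.0 and 9.39 CPM) and a log2 ratio of −0.23 (−0.55 to 0.09). Ddc had 29 and 25 counts (−0.20, from −1.04 to 0.62), Kmo 38 and 33 (−0.19, from −0.91 to 0.52) and Afmid 49 and 50 (0.04, from −0.56 to 0.64). These intervals are wide, and no difference was detectable at this depth. Kynu had 1 count in CLP heart and 2 in CLP+MLT heart and did not pass the filter. With CLP, the heart levels of Ddc, Kmo and Kynu were 2.08%, 3.61% and 2.89% of their kidney levels. With CLP+MLT they were 3.94%, 2.65% and 3.46%. The medians of the proximal tubule markers were 2.46% and 4.10%, and whether these enzyme reads came from heart cells was not tested.

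**Figure D4:**
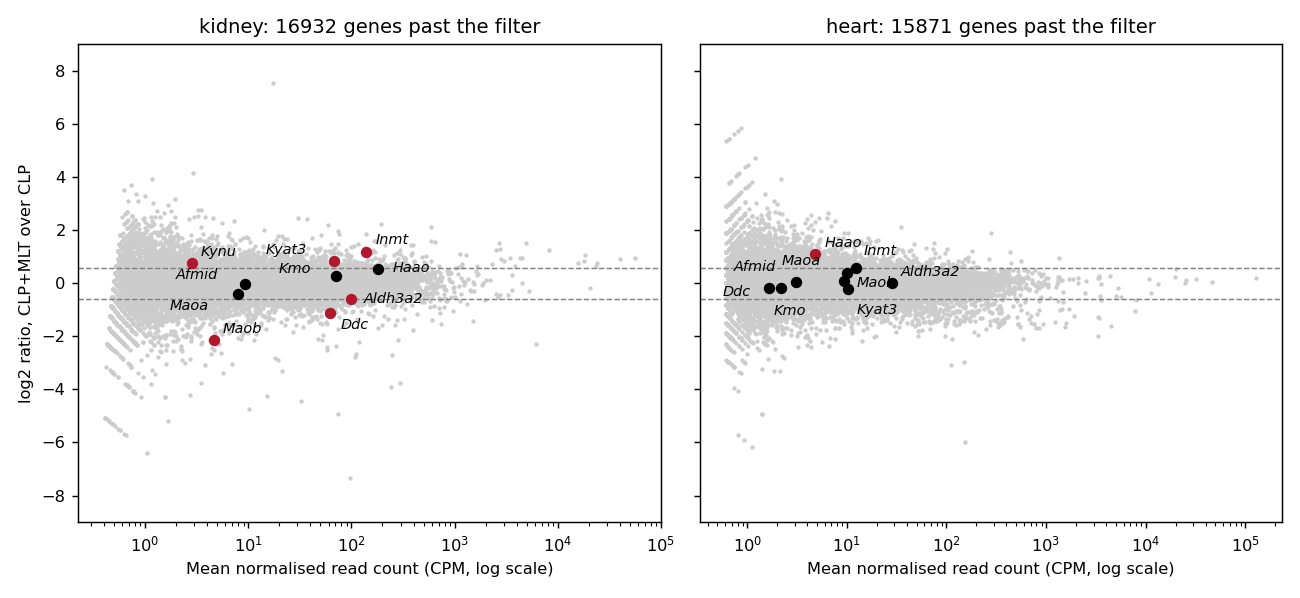
log2 ratio of CLP+MLT over CLP against the mean normalised read count (CPM, logarithmic axis) for all genes past the filter (grey) in kidney (left) and heart (right), with the enzyme genes in red where past the thresholds and in black elsewhere, and dashed lines at a fold of 1.5. The 6 red genes of kidney lie on both sides of 0, and in heart Haao is the 1 red gene.

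Between the organs, the enzymes fell into 3 kinds in the CLP libraries. Haao (48.1-fold, 36.4 to 64.9), Ddc (48.0-fold, 33.3 to 71.8), Kynu (34.6-fold, 5.94 to 1391) and Kmo (27.7-fold, 20.1 to 39.3) were far higher in kidney. Inmt (8.60-fold), Kyat3 (4.49-fold), Aldh3a2 (4.27-fold) and Afmid (3.12-fold) were higher by smaller factors. The intervals of the monoamine oxidases included 1, with kidney over heart at 1.06 (0.855 to 1.32) for Maoa and 0.835 (0.669 to 1.04) for Maob. With CLP+MLT, Maoa stood at 0.606 (0.472 to 0.774) and Maob at 0.178 (0.112 to 0.270) of the heart level. The libraries of the organs were scaled within each organ. With TMM over all 4 libraries the CLP values were 0.860 (0.693 to 1.07) for Maoa and 0.677 (0.543 to 0.846) for Maob, so that Maob was then lower in kidney.

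The log2 ratio in heart minus that in kidney was 2.22 for Maob, 0.92 for Ddc, 0.81 for Maoa, 0.62 for Aldh3a2, 0.55 for Haao, −0.45 for Kmo, −0.60 for Inmt and −1.05 for Kyat3. The counting intervals of the 2 organs did not overlap for Maob, Maoa, Aldh3a2, Inmt and Kyat3. The share of all genes without such overlap is not given here, so this cannot be read as particular to these enzymes. With 1 library per group, no interaction between organ and treatment could be tested. Of the reads on Maoa and Maob in heart, Maob took 51.2% (45.3 to 57.1) in CLP and 45.6% (40.2 to 51.0) in CLP+MLT. Kyat3 took 82.5% and 82.2% of the reads on Kyat3 and Kmo.

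The genes around these enzymes were counted with 9 lists of 76 genes in all, also chosen with earlier results of these data known. In kidney 57 passed the filter, and 14 of them (24.6%) passed the thresholds, 2 higher and 12 lower, against 15.4% of all genes (7.8% higher and 7.58% lower), with a median log2 ratio of −0.14. At the step into the kynurenine pathway, Tdo2 and Ido1 were almost without reads in kidney, while Ido2 stood at 6.81 (CLP) and 9.42 CPM (CLP+MLT). Tdo2 had 2 counts in each library, Ido1 had 1 in CLP and 0 in CLP+MLT, and Ido2 had 167 and 145 counts with a log2 ratio of 0.47 (0.14 to 0.80). Tph1 and Tph2, the first enzymes towards serotonin, had at most 2 counts in any library. Of the melatonin genes, the synthesis enzymes Aanat and Asmt and the receptors Mtnr1a and Mtnr1b had 0 or 1 count in each library.

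Past kynurenine, the aminotransferases Kyat1 and Aadat were above 0 in kidney but under the threshold, with log2 ratios of 0.44 (0.38 to 0.51) for Kyat1 and 0.47 (0.37 to 0.56) for Aadat. Acmsd, which diverts the pathway away from NAD, was at 0.11 (−0.08 to 0.29), and Qprt, which commits it to NAD, was at −0.14 (−0.29 to 0.02). Nmnat3, which makes NAD in mitochondria, fell from 22.2 to 12.6 CPM, a log2 ratio of −0.81 (−1.06 to −0.58). Of the 9 genes of this list 8 passed the filter, and Nmnat3 was the 1 past the thresholds (12.5%, against 15.4% of all genes).

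Of the 7 tryptophan and aromatic amino acid transporters, all past the filter, 4 were lower and 1 was higher past the thresholds. These 5 were 71.4% of the list, against 15.4% of all genes, and its median was −0.77. As the lists were chosen with earlier results known, this share is a description and not a test. Slc6a19, the apical neutral amino acid transporter of the proximal tubule, had 1876 counts in CLP and 403 in CLP+MLT and stood at −1.55 on the log2 scale (−1.71 to −1.39). Slc3a2, the heavy chain of several amino acid exchangers, was at −1.16 (−1.24 to −1.07), and Slc7a8, the basolateral light chain that pairs with it, at −0.93 (−1.08 to −0.79). Among the 8 other amine enzymes past the filter, 1 was higher and 2 were lower past the thresholds (37.5%, against 15.4% of all genes). Aldh1a1, an aldehyde dehydrogenase best known for oxidising retinal, was at −1.01 (−1.26 to −0.77). It was the 1 gene past the thresholds of 9 past the filter in the aldehyde and indole list (11.1%).

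In heart 58 of the 76 genes passed the filter and 14 (24.1%) passed the thresholds, 7 higher and 7 lower, against 15.9% of all genes (7.15% higher and 8.78% lower), with a median of −0.14. Got2, the mitochondrial aspartate aminotransferase that also acts on kynurenine, had 4257 counts in CLP and 1857 in CLP+MLT. It stood at −1.19 (−1.27 to −1.11) in heart and at −0.26 (−0.32 to −0.20) in kidney. Of the amine enzymes, Aoc3 was lower at −0.84 (−1.09 to −0.60) and Sult1a1 at −0.79 (−0.86 to −0.71). Aadat had 7 and 35 counts in heart and stood at 2.25 (1.14 to 3.75). Rnls, Slc18a1, Slc22a2 and Nat8, chosen after their values were seen, were also higher past the thresholds in heart, with 0.85 to 1.27. Of the 12 tubule markers given for Haao, most but not all were higher in CLP+MLT heart, and their part in these differences was not tested.

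**Figure D5:**
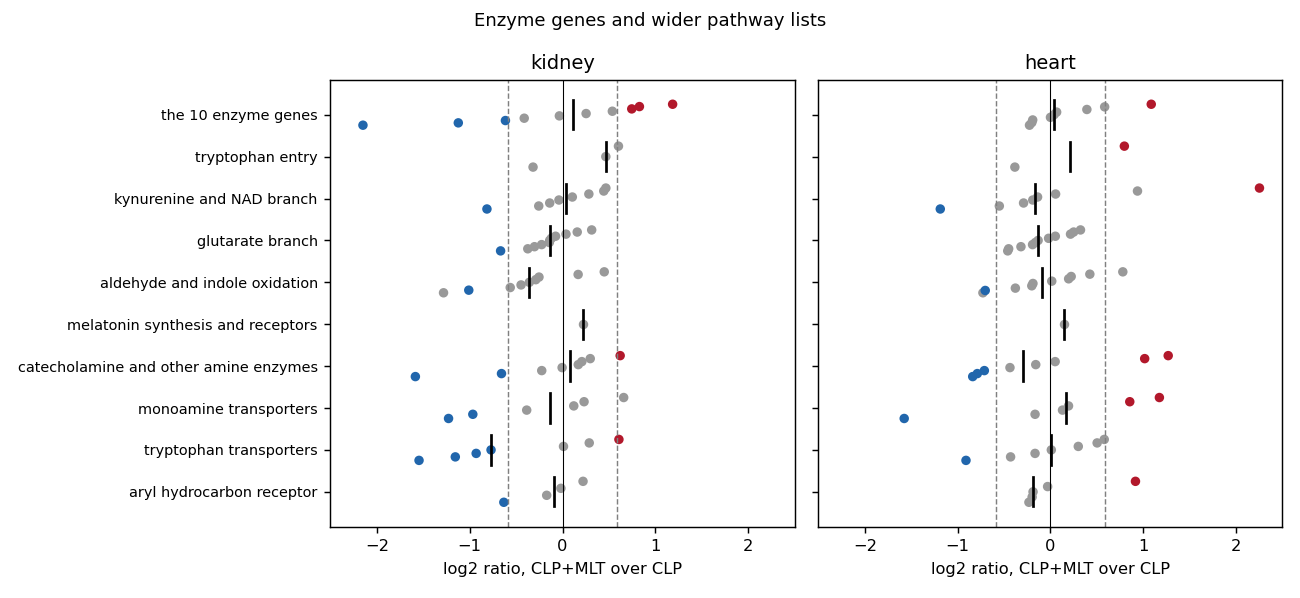
log2 ratio of CLP+MLT over CLP for the enzyme genes and the 9 wider lists in kidney (left) and heart (right), with 1 point per gene past the filter, red where higher and blue where lower past the thresholds, black bars at the median of each list and dashed lines at a fold of 1.5. In kidney the blue points lie mostly in the transporter and amine lists, and the tryptophan transporters have the lowest median (−0.77).

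Over the 4 libraries, the genes whose pattern lay nearest that of Maob, the enzyme with the largest kidney ratio, were Gpat3, Adam11 and Maff. Their distances were 0.52, 0.54 and 0.69 in log2 CPM centred within the gene, among the 11797 genes that averaged 100 counts or more. Gpat3 had 214 and 27 counts in the kidneys and 160 and 111 in the hearts. With 4 points per gene this describes the libraries and no more.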

How the data were processed

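RNA was measured by poly-A RNA-seq. The authors deposited counts of reads per gene, without normalization. The submitters' processing notes name HISAT2 2.1.0, HTSeq and mm10, and the study's methods name trim-galore for trimming. The version and settings of HTSeq, strand included, and the annotation were not given in the sources used here. Reads aligned to several places are not counted. The 5 closing totals in each file, which name no gene, held 65.5% to 72.8% of its sum and were left out. Symbols, positions and exon lengths came from GENCODE M21 (GRCm38, the same build), for 55141 of 55401 identifiers.

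Scaling factors were computed within each tissue with TMM in edgeR 4.0.16 (R 4.3.3), over genes averaging 10 counts or more, and all other values in Python 3.11.15 with scipy 1.17.1. Log2 ratios used a prior count of 0.5. Since a single library gives no dispersion, the thresholds (fold 1.5, p 0.01) used an exact binomial test of the read counts, two-sided. Intervals are 95% exact (Clopper-Pearson or Poisson), and a count of 0 allows 3 counts. PCR copies are not independent molecules. The procedure was tested on simulated counts with counting error only, which cannot show how it behaves when mice vary. The alternatives were other scalings (DESeq2 1.42.0 among them), filters, prior counts, a fold of 2 and assumed variation between mice.

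The enzymes and the lists were chosen with earlier results of these data known. By rule the text names the 10 enzymes, up to 6 genes of the wider lists per tissue that passed and averaged 100 counts or more, the 3 genes nearest the leading enzyme, and 13 entry and branch genes. Marker genes are named as members of their lists. A gene named by this rule is not reported here.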

Additional observations from a re-analysis of the deposited data

Results flagged for a closer look

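Maoa moved in opposite directions in the 2 organs. On the log2 scale, CLP+MLT against CLP stood at −0.41 (−0.76 to −0.07) in kidney and 0.39 (0.07 to 0.72) in heart, so that heart minus kidney came to 0.81. Each counting interval lay on its own side of 0. With 1 library per group this difference was not tested, and neither ratio reached a fold of 1.5. Of the 9 enzymes past the filter in both organs, it was the 1 with intervals on opposite sides. The share of all genes with such intervals is not given here.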

How the results depend on the processing

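No paired analysis was possible because each group has 1 library, and for the same reason no replicate could be left out. Of the 10 enzymes, 6 passed the thresholds in kidney and 1 in heart. With a fold of at least 2, 3 passed in kidney. In edgeR's exact test at an assumed coefficient of variation of 0.2 there were 3 in kidney and 0 in heart, and at 0.4 there were 0 in both. Haao thus lost its call in heart at 0.2. Scaled by library size only or by the upper quartile, 2 passed in heart, Inmt being added. Library size scaling moved the median of all kidney genes to −0.19. Against that shift Kynu (0.55) lost its call and Maoa (−0.61) gained one, while the share of called kidney genes that were higher went from 50.7% to 23.5%. Aldh3a2 in heart turned from 0.00042 to −0.0017 with DESeq2 size factors. Of the wider lists, 14 genes passed in each organ. In kidney 5 did with a fold of 2, 3 at a variation of 0.2 and 0 at 0.4, and in heart 6, 2 and 0. Over all genes, 2604 passed in kidney, against 1185, 619 and 90 under these 3 settings, and 2528 in heart, against 1259, 662 and 63. These losses follow from the stricter fold and the larger assumed variation. The medians of the enzymes stayed between the median lower and upper bounds of the genes under each scaling, filter and prior count tried. These bounds are not an interval of the median. The kidney median changed sign with library size scaling, from 0.11 to −0.08. Depth limits Ddc, Kmo, Afmid and Kynu in heart, each with fewer than 60 counts per library.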

Other observations

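The aryl hydrocarbon receptor, which kynurenine and other tryptophan products can activate, was counted with its partner and targets. In heart, Ahr had 266 counts in CLP and 499 in CLP+MLT and rose by 0.92 on the log2 scale (0.70 to 1.14). The other 4 genes of that list (Ahrr, Arnt, Tiparp and Nqo1, named after their values were seen) lay between −0.23 and −0.03, with 0 past the thresholds. The list thus had 1 of 5 genes (20%) past them, against 15.9% of all genes. In kidney, Ahr was at 0.22 (−0.14 to 0.58). Nqo1, at −0.63 (−0.73 to −0.53), was the 1 gene of the 4 past the filter that passed the thresholds (25%, against 15.4% of all genes). Cyp1a1, a common readout of the receptor, had 36 and 31 counts in kidney, a log2 ratio of 0.45 (−0.29 to 1.19) after scaling. In heart Cyp1a1 had 5 and 12 counts and did not pass the filter. Cyp1b1, which stands with Cyp1a1 in the aldehyde and indole list, was at −0.45 (−0.65 to −0.25) in kidney. In heart Cyp1b1 was at −0.70 (−1.16 to −0.27), the 1 gene of 10 in that list past the thresholds (10%, against 15.9% of all genes). Cyp1a1, Cyp1b1, and Ehhadh and Gcdh in the next list, were also chosen after their values were seen.

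The list for the branch that breaks down the carbon skeleton of tryptophan and lysine through glutaryl-CoA had 11 genes, not all mitochondrial. All were past the filter in both organs. Its median log2 ratio was −0.14 in kidney and −0.13 in heart. Ehhadh, a peroxisomal enzyme of fatty acid oxidation, was the 1 past the thresholds in kidney, at −0.67 (−0.70 to −0.63), and 0 passed in heart. This was 9.09% of the list in kidney and 0% in heart, against 15.4% and 15.9% of all genes. Gcdh, the enzyme the branch is named for, was at 0.31 (0.27 to 0.36) in kidney and −0.02 (−0.13 to 0.09) in heart.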
